A study of Mus musculus with 3 samples.

Results

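The oxysterol-binding protein family was examined here through the RNA crosslinks of RBFOX2, a splicing regulator that binds pre-mRNA. The 10 member genes were taken by name (Osbp, Osbpl1a, Osbpl2, Osbpl3, Osbpl5, Osbpl6, Osbpl8, Osbpl9, Osbpl10 and Osbpl11). Their clusters of crosslink positions were those on the gene's own strand whose midpoint lay inside the annotated gene span (GENCODE M21 on the mouse genome GRCm38). This gave 131 of the 87021 clusters in the list. The clusters came from eiCLIP, an expedited form of iCLIP in which RNA is crosslinked to protein by ultraviolet light, pulled down with an antibody to the protein and read at the nucleotide of contact. There was 1 group of 3 libraries, made with an RBFOX2 antibody from primary hepatocytes of C57BL6/J mice that had been kept on a control diet, plated overnight and irradiated at 150 mJ/cm2. The labels give no other genotype, treatment or time point for these libraries, and no age. The labels gave 3 livers and 3 pellets for each library, whereas the study's methods described independent cultures that each combined a pair of mice. The 3 libraries were pooled before clusters were defined, so no value below has a spread between replicates, no difference was tested and every interval covers counting error only.

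Members of this family carry lipids between closely apposed membranes. A shared lipid-binding domain holds a sterol or phosphatidylserine in exchange for phosphatidylinositol 4-phosphate (PI4P), and most members are anchored to the endoplasmic reticulum by VAP proteins or by a membrane-spanning tail. In the liver these proteins are known for their part in cholesterol and lipoprotein handling. RBFOX proteins recognise the RNA motif (U)GCAUG, and in other systems the side of an exon on which they bind has been related to whether the exon is used. Exon use was not measured in these libraries.

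The sequences that the exon results turn on are given first, in the direction of transcription. They were read from the annotated transcripts on GRCm38. The first is the 39-nt exon of Osbpl9, the second the 51-nt exon of the same gene with the start of its downstream intron (capitals mark the cluster there), and the last 3 are cassette exons of Osbpl3, the 104-nt one with GCATG in capitals.
Osbpl9 39-nt exon, chr4:109091661-109091699, minus strand: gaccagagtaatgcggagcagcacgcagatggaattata
Osbpl9 51-nt exon and 85 nt of intron, chr4:109172189-109172324, minus strand: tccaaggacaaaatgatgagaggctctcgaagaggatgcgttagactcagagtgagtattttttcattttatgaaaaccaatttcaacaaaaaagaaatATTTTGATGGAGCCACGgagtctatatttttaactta
Osbpl3 124-nt exon, chr6:50347366-50347489, minus strand: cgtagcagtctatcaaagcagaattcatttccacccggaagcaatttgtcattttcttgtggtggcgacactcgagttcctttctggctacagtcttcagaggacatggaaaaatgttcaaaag
Osbpl3 108-nt exon, chr6:50333186-50333293, minus strand: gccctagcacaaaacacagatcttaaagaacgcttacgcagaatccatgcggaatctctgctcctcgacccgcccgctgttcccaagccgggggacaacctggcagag
Osbpl3 104-nt exon, chr6:50346328-50346431, minus strand: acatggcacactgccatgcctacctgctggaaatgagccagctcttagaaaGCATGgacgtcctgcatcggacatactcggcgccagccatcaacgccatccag

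The list held 2850863 counts in all, a count being read here as a cDNA start pooled over the libraries. The lowest count of a cluster was 10 and the median 17, and the absence of a gene from the list sets no level of binding. Of 8 hepatocyte marker genes, 7 had clusters, with up to 8110 counts (Alb), and Serpina1a had none. Of 15 markers of Kupffer cells, endothelium, stellate cells and cholangiocytes, 4 had clusters, of which Reln had 150 counts and the others at most 15.

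RBFOX2 clusters were present in 8 of the 10 members, and 41.7% of all 22028 protein-coding genes had at least 1. The members were chosen with earlier results of these data known. Their median span was 137 kb, against 32.7 kb for protein-coding genes with a cluster, and the part of length in this share was not tested. Together the members held 2566 counts. The clusters were spread unevenly, with 115 of 131 (87.8%) in Osbpl8, Osbpl9, Osbpl1a and Osbpl3. No cluster fell in Osbpl5 or Osbpl6, nor in Osbp2 and Osbpl7, the remaining genes of the family. RNA levels were not analysed here, so that little binding and little transcript cannot be told apart.

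**Figure D1:**
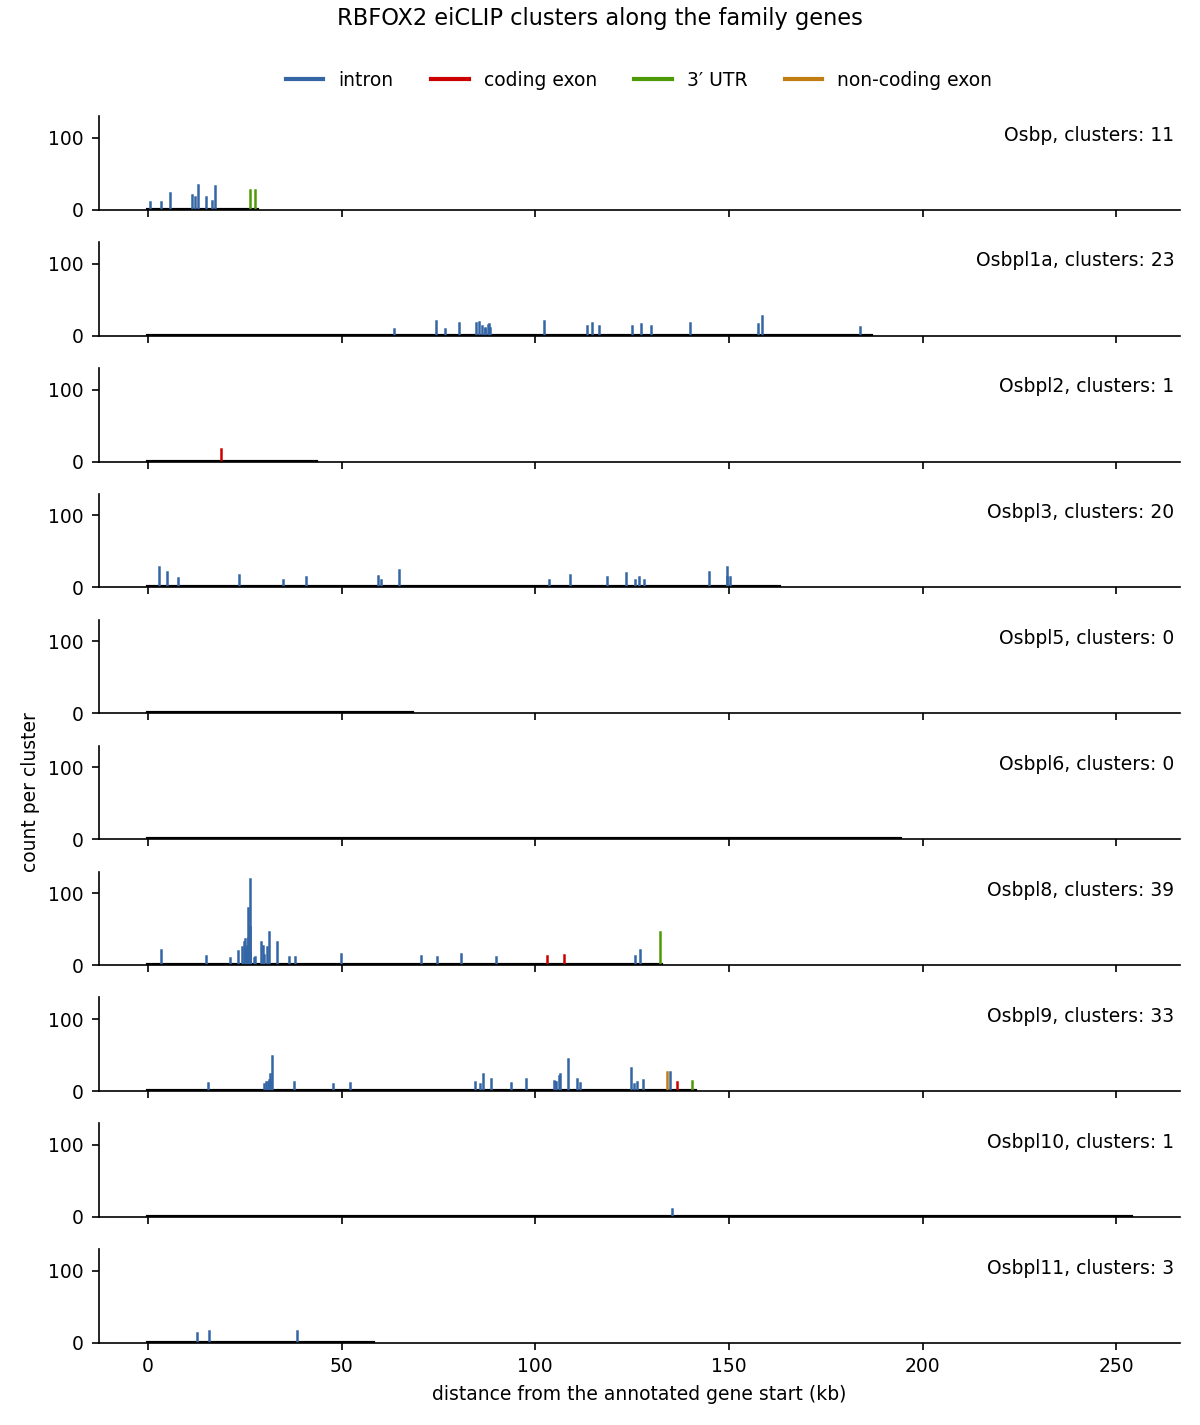
Clusters along the 10 member genes. The horizontal axis is the distance from the annotated gene start in kb, the black line is the gene span, and each vertical line is a cluster whose height is its count and whose colour is its annotation class. Osbpl8 has a dense run of intronic clusters that reaches 119 counts, and Osbpl5 and Osbpl6 have no cluster.

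In most subfamilies 1 gene carried nearly all of the clusters. Osbp, the founding sterol and PI4P exchanger between the endoplasmic reticulum and the Golgi (chromosome 19, 11965941 to 11994112), had 11 clusters with 234 counts, while Osbp2, which shared 61.3% of aligned residues with it, had 0. Osbpl1a, a sterol sensor of late endosomes (chromosome 18, 12755314 to 12941841), had 23 clusters with 353 counts. Its closest paralogue Osbpl2 (chromosome 2, 180119306 to 180162680), with 70.3% identical aligned residues, had a single cluster of 18 counts.

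Osbpl3, which acts at contacts between the endoplasmic reticulum and the plasma membrane (chromosome 6, 50293330 to 50456201), had 20 clusters with 336 counts. Its paralogues Osbpl6 (chromosome 2, 76406508 to 76600647) and Osbpl7 had 0. They shared 59.8% and 54.2% of aligned residues with it. The span was 163 kb for Osbpl3, 194 kb for Osbpl6 and 18.3 kb for Osbpl7. Osbpl8, a phosphatidylserine transporter with a membrane-spanning tail (chromosome 10, 111164752 to 111297249), had 39 clusters. Their sum of 990 counts was, like their number, the highest of the family. Osbpl5 (chromosome 7, 143688762 to 143756985), a tail-anchored transporter of the same lipid with 55.9% identical aligned residues, had 0. Osbpl9 (chromosome 4, 109061145 to 109202272), a member known from Golgi and endosomal membranes, had 33 clusters with 578 counts. Osbpl10 (chromosome 9, 114978569 to 115232225) and Osbpl11 (chromosome 16, 33185071 to 33243312), which were 57.5% identical to each other, had 1 cluster of 11 counts and 3 clusters with 46 counts. For Osbp and Osbp2 the numbers of clusters were thus 11 against 0, and for Osbpl1a and Osbpl2 23 against 1. For Osbpl3 and Osbpl6 they were 20 against 0, and for Osbpl8 and Osbpl5 39 against 0. Osbpl10 and Osbpl11 were alike, with 1 against 3. Only 41.7% of all protein-coding genes had a cluster. The gene with fewer was the longer for Osbp2 (160 against 28.2 kb), Osbpl6 and Osbpl10 (254 against 58.2 kb). It was the shorter for Osbpl2 (43.4 against 187 kb) and Osbpl5 (68.2 against 132 kb). The part of gene length was not tested.

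The order changed when length was considered. Per kb of gene span, Osbp had 8.31 counts (exact Poisson 95% interval 7.28 to 9.44) and Osbpl8 7.47 (7.01 to 7.95), and these intervals overlapped. Osbpl9 followed with 4.10 counts per kb (3.77 to 4.44). Osbpl3 (2.06, 1.85 to 2.30) and Osbpl1a (1.89, 1.70 to 2.10) did not differ beyond their intervals. Osbpl11 had 0.790 counts per kb (0.578 to 1.05) and Osbpl2 0.415 (0.246 to 0.656), again with overlap, and Osbpl10 was lowest at 0.0434 (0.0216 to 0.0776). These intervals take each count as independent, although counts come in clusters of at least 10, so they may be too narrow to separate genes. In clusters per 10 kb of span, the Poisson intervals of Osbp (3.90, 1.95 to 6.99), Osbpl8 (2.94, 2.09 to 4.02) and Osbpl9 (2.34, 1.61 to 3.28) overlapped. Each of these genes lay above the median of 1.22 for the 9191 protein-coding genes with a cluster. Osbpl1a and Osbpl3 (1.23 each) lay at it, and Osbpl11 (0.515), Osbpl2 (0.231) and Osbpl10 (0.0394) below it. The upper quartile of those protein-coding genes was 2.87, so that Osbpl9 lay below it and Osbpl8 close to it.

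**Figure D2:**
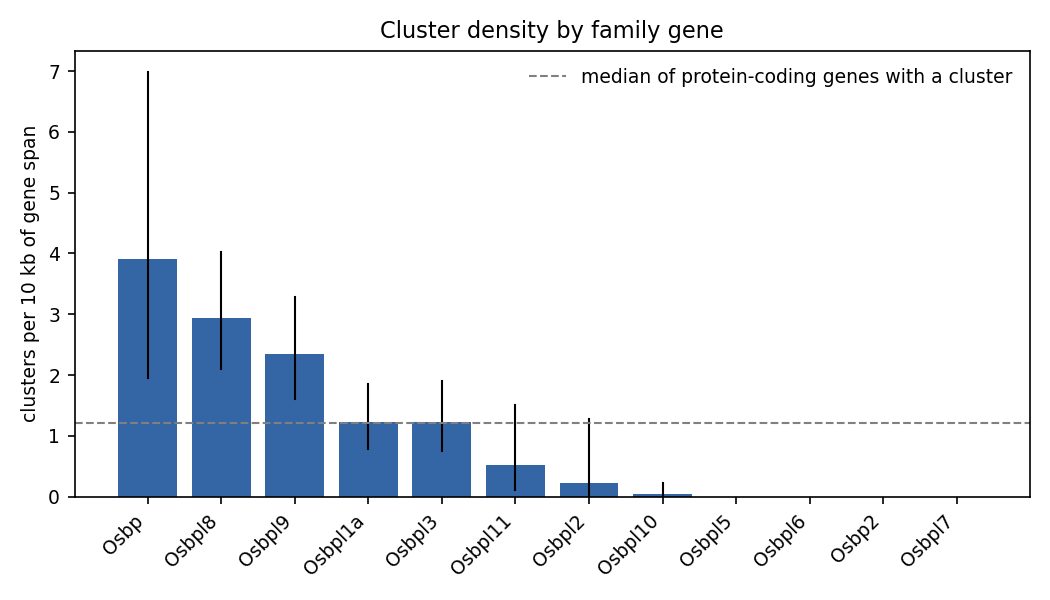
Clusters per 10 kb of gene span for the 10 members and for Osbp2 and Osbpl7. Black lines are exact Poisson 95% intervals for the number of clusters (counting error only, with clusters taken as independent). The dashed line is the median of protein-coding genes with a cluster, 1.22. Osbp, Osbpl8 and Osbpl9 stand above this median. Their intervals do not reach it but hold the upper quartile of those genes, 2.87.

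Single clusters of the family were of modest size. Counts per cluster ran from 10 to 119 with a median of 15, against 17 for clusters of protein-coding genes as a whole. Only 7 of the 131 (5.34%) reached the 39 counts that marked the top 10% of all clusters, 5 of them in Osbpl8 and 2 in Osbpl9. Osbp had few clusters but a median of 20 counts, and its highest, with 34 counts, spanned the end of its sixth intron and the start of exon 7. The highest cluster of Osbpl1a had 27 counts. In Osbpl3 clusters of 29 counts were the highest, a 3-nt one in intron 22 and a 19-nt one in intron 1. Osbpl9 reached 49 counts in its second intron. The highest cluster of Osbpl11 had 17 counts. The median width was 31 nt, in a range of 1 to 194 nt. Narrow clusters, of 5 nt or less, made up 24 of 131 (18.3%), against 21.7% for protein-coding genes.

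Introns held 122 of the 131 clusters, or 93.1% (Wilson 95% interval 87.5 to 96.3%), whereas 69.3% of the 71565 clusters in protein-coding genes were intronic. The members are long genes, with a median span of 137 kb against 32.7 kb for protein-coding genes with a cluster, and the part of gene length in this share was not tested. Coding sequence and 3′ UTRs held 4 clusters each (3.05%, 1.19 to 7.59%), against 14.6% and 13.8% of clusters in protein-coding genes. No cluster lay in a 5′ UTR and 1 lay in a non-coding exon.

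Of the 9 exonic clusters, Osbpl8 and Osbpl9 held 3 each, Osbp 2 and Osbpl2 1. Osbpl2 had its only cluster, 120 nt wide, in the 145-nt exon 3 of Osbpl2-201. In Osbpl8, clusters of 13 and 14 counts lay in exons 8 and 11 of Osbpl8-202, both used by every spanning coding transcript. Osbp had a pair of 3′ UTR clusters of 27 counts each. The 3′ UTR clusters of Osbpl8 and Osbpl9 had 46 and 14 counts, and the non-coding exon cluster, in Osbpl9, had 27. All 23 clusters of Osbpl1a and all 20 of Osbpl3 were intronic by midpoint.

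Intronic clusters of the family lay at a wide range of distances from exons. The median distance to the nearest exon of a coding transcript was 2143 nt (quartiles 936 and 8311 nt, 122 clusters), against 1735 nt (414 and 7121 nt) for 49618 intronic clusters of protein-coding genes. Within 300 nt of an exon lay 14 (11.5%), against 21.0%. More than 5 kb from an exon lay 41 (33.6%), against 30.9%. Members differed in this respect. The median was 547 nt in the short gene Osbp, 1549 nt in Osbpl3, 1582 nt in Osbpl1a and 1655 nt in Osbpl9, each below 1735 nt. In Osbpl8 it was 13006 nt, and 29 of its 36 intronic clusters were more than 5 kb from any exon.

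Most of these distant clusters were in the first intron of Osbpl8. This intron, of 39.5 kb (chromosome 10, 111165197 to 111204734), separates the first exon from the exon that holds the start codon of the longer form Osbpl8-202. It covered 29.8% of the gene span and held 29 of the 39 clusters (74.4%) with 816 counts. The densest 10 kb, a window chosen after the clusters had been seen, held 24 clusters with 727 counts, or 73.4% of all counts of the gene. Of 9191 protein-coding genes with a cluster, 2.09% had a stretch of 10 kb with as many. Single clusters there reached 119 counts (111191205 to 111191261), 80 counts (111190629 to 111190676), 53 counts (111191107 to 111191124) and 46 counts (111195931 to 111195961). The first of these exceeded 98.5% of all clusters and was 13473 nt upstream of the next exon.

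Many of these clusters were narrow, with a median width of 8.5 nt, and 9 of the 24 were 5 nt wide or less. Without clusters of that width the densest 10 kb held 15, a number reached by 2.86% of genes with such clusters. Merging clusters within 200 nt of each other lowered the total of Osbpl8 from 39 to 26, below the 31 of Osbpl9. The other annotated genes on the strand of a member, 4 in all, held 0 of the clusters, among them a processed pseudogene, Gm17849, in this intron.

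**Figure D3:**
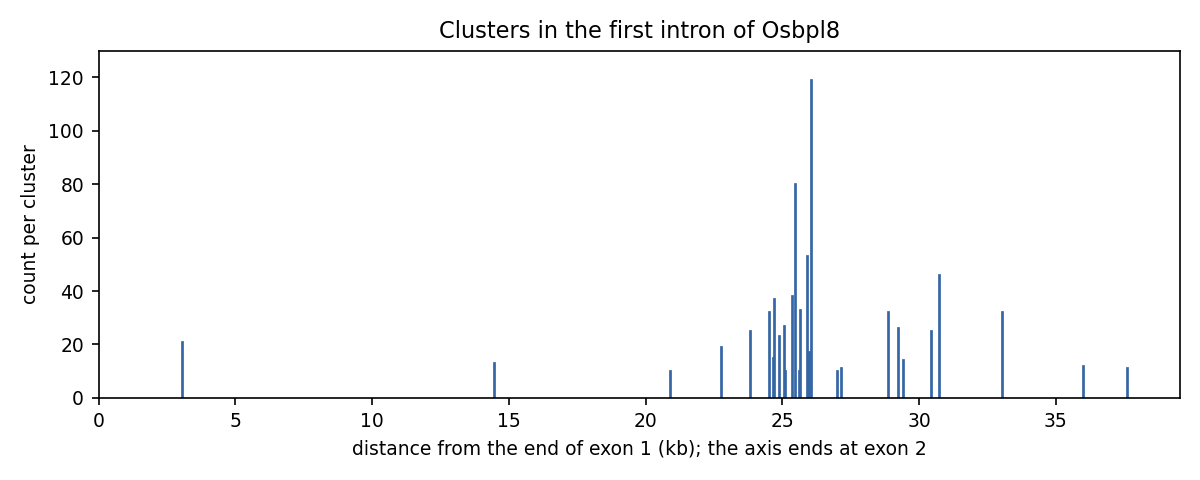
Clusters in the first intron of Osbpl8. The horizontal axis is the distance from the end of exon 1 in kb, ending at exon 2, and the height of each line is the count of a cluster. Of the 29 clusters, 24 lie in a stretch of 10 kb in the second part of the intron, with the highest at 119 counts.

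Of Osbpl8's other introns, the fourth held 4 clusters of 11 to 16 counts. Only 1 annotated cassette exon, the 37-nt exon 3 of Osbpl8-202 (chr10:111224672-111224708), was found in this gene, and its nearest clusters lay 10017 nt upstream and 10450 nt downstream, with 15 and 13 counts. Its sequence, shown as the cassette exon of the member with the most clusters, was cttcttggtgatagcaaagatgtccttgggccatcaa.

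Osbpl9 had its clusters in 9 of 26 introns. The second intron, of 15.5 kb, held 8 clusters with 148 counts, of which 7 lay within 2129 nt downstream of the 51-nt exon printed above. Their counts, going away from the exon, were 10, 12, 13, 15, 23, 13 and 49, the last being the highest of the gene (109170069 to 109170144). The nearest of them (109172209 to 109172225) began 48 nt from the exon and is the run in capitals. No GCATG was in its window of 50 nt on either side.

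The 39-nt exon of Osbpl9 encodes 13 codons and was used by 3 of 7 spanning coding transcripts. A 33-nt cluster of 17 counts (109091447 to 109091479) lay 181 nt downstream and another, of 11 counts, 819 nt downstream. Those were the only clusters of the 4175-nt downstream intron. Upstream, the intron of 6803 nt held 6 clusters with 128 counts, or 8.82 clusters per 10 kb, but all of them were at least 2180 nt from the exon. The nearest upstream cluster (109093880 to 109094001) had 44 counts, above 91.9% of all clusters, and those at 4166 and 4551 nt had 24 and 21. The other 3, of 13, 12 and 14 counts, lay more than 5 kb from the exon. Within 5 kb of the exon there were thus 3 clusters with 89 counts upstream and 2 with 28 counts downstream. The other cassette exon of this gene, of 69 nt (chr4:109107881-109107949), was used by 1 of 7 spanning transcripts. On its upstream side a cluster of 11 counts was 494 nt away, and on its downstream side the nearest, of 17 counts, was 3192 nt away.

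Across the family, 14 internal exons were cassette exons, here an exon skipped by at least 1 protein-coding transcript that spans it. They belonged to 5 genes, and 9 had a length divisible by 3. A cluster lay within 300 nt of 4 of them (28.6%, Wilson 95% interval 11.7 to 54.6%), against 11.2% of the 12245 cassette exons of all protein-coding genes and 17.3% of those in genes with at least 1 cluster, a share inside the interval. All 4 clusters were downstream of their exon, where the background was 4.99%, and 0 were upstream (interval up to 21.5%), where it was 4.30%. Of these 4 exons, the 39-nt exon of Osbpl9 was named before the count was made. The family share is therefore not independent of that choice. In cassette exons of genes with at least 1 cluster the downstream share was 7.75% and the upstream share 6.67%. Constitutive exons, used by every one of at least 2 spanning transcripts, had a cluster inside or within 300 nt in 5 of 134 (3.73%, 1.60 to 8.44%), against a background of 9.38%, or 14.7% in genes with at least 1 cluster. Their upstream and downstream shares were 0 and 2 of 134, against 2.43% and 2.91%. The family shares were not limited to genes with a cluster. They include 3 cassette exons of Osbpl6. They also include 19 constitutive exons of Osbpl5 and 23 of Osbpl6, genes without a cluster, which lowers the family shares beside the backgrounds for genes with at least 1 cluster.

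The 4 exons were in Osbpl3 and Osbpl9, which together had 8 cassette and 34 constitutive exons. Of the constitutive exons in these genes 2 had a cluster, 1 of them downstream. The distances downstream were 48 nt for the 51-nt exon and 181 nt for the 39-nt exon of Osbpl9, and 140 nt for the 124-nt exon and 194 nt for the 108-nt exon of Osbpl3. In the same order the clusters had 10, 17, 18 and 20 counts, beside a median of 17 over the whole list, and the one beside the 124-nt exon was 5 nt wide. Leaving out clusters of that width kept 3 of the 4 exons, with backgrounds of 4.41% downstream and 10.1% for any position. With 1000 nt of intron the number was 6, the additions being the Osbpl9 69-nt and the Osbpl3 104-nt exon, each with a cluster upstream. With 100 nt only the Osbpl9 51-nt exon was left. The cassette exons of Osbpl1a, Osbpl6 and Osbpl8 had no cluster within 1000 nt.

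**Figure D4:**
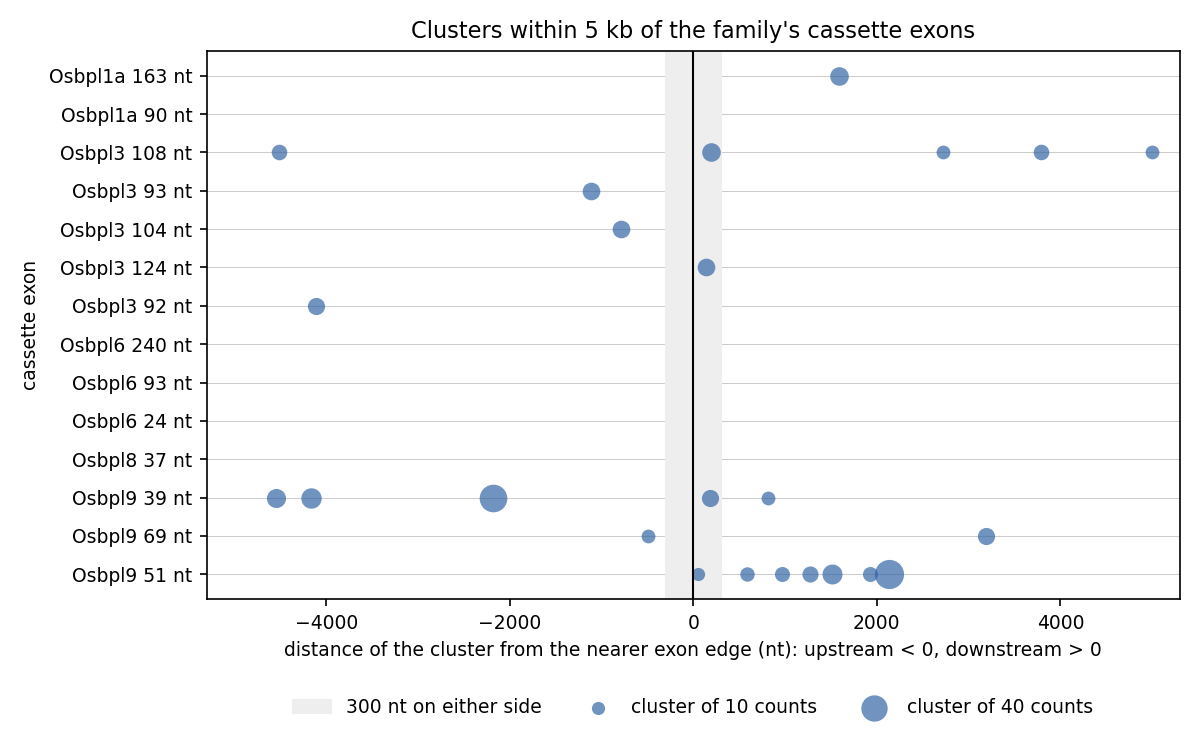
Clusters within 5 kb of the 14 cassette exons of the family. The horizontal axis is the distance in nt from the nearer edge of the exon, negative upstream and positive downstream in the direction of transcription, the area of a point is proportional to its count, and the grey band is 300 nt on either side. In this band 4 exons have a point, each on the downstream side, at 48 to 194 nt.

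The cassette exons of Osbpl3 lie in a region with several of them. The 124-nt exon (4 of 5 spanning transcripts used it) is followed by an intron of 934 nt with the 5-nt cluster, then by the 104-nt exon (4 of 5), an intron of 224 nt without a cluster and the 93-nt exon (2 of 5). The 104-nt exon was the only one of the 14 whose own bases held GCATG, a motif present in 9.73% of 1789 cassette exons within 10 nt of its length. No cluster lay in it. The cluster after the 108-nt exon (3 of 5) was 194 nt wide (50332798 to 50332991) and was 1 of 3 in that 4381-nt intron. A 54-nt exon of Osbpl3 that overlaps another annotated exon with different ends, and was therefore not classed, had a cluster of 11 counts across its downstream edge.

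The 93-nt exons of Osbpl3 and Osbpl6 correspond to each other. In the alignment of the proteins, all 31 residues encoded by the Osbpl3 exon lined up with residues of the Osbpl6 exon, and 13 were identical. The bases agreed at 51 of 93 positions (54.8%). They are shown because both genes annotate this exon as a cassette and neither had a cluster within 300 nt of it. Capitals mark identical bases.
Osbpl3 93-nt exon, chr6:50346011-50346103, minus strand: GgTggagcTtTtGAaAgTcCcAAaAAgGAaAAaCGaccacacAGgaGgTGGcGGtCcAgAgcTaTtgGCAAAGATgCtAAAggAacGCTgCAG
Osbpl6 93-nt exon, chr2:76555890-76555982, plus strand: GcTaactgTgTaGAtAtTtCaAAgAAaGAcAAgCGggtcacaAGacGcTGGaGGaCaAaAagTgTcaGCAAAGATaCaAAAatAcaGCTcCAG
For the Osbpl3 exon the nearest cluster was 1117 nt upstream, beyond the 104-nt exon. The Osbpl6 gene had none at any distance.

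Osbp and Osbpl2 have a single annotated coding transcript each, so that no exon of theirs could be classed as cassette or constitutive. In Osbp, a cluster of 18 counts began 6 nt after exon 4 and lay 207 nt before exon 5, and the cluster of 34 counts lay 61 nt after exon 6 and reached into exon 7. These 4 exons were the only ones of the 12 internal exons of this gene with a cluster in or within 300 nt of them.

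The RBFOX motif could be read for few clusters. Sequence on the transcribed strand was at hand for windows made of annotated exons only, which covered 7 of the 131 clusters with 50 nt on either side. GCATG was in 1 of the 7 (14.3%, Wilson 95% interval 2.57 to 51.3%), against 20.3% of 18172 windows of clusters in protein-coding genes. That window belonged to the 3′ UTR cluster of Osbpl8 (111296946 to 111297126, 46 counts), and the motif began 12 nt before the cluster. Its surroundings (chr10:111296922-111296950, plus strand), with the motif in capitals, were tttccacttttgGCATGttaaatatagat. Among 3′ UTR windows of all protein-coding genes, 21.7% held the motif.

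Genes linked to lipid exchange between membranes, only some of them partners of the family, also held clusters. Of 33 listed genes, chosen with earlier results of these data known, 32 had a cluster, against 41.7% of all protein-coding genes. That share covers genes whether or not hepatocytes transcribe them, and RNA levels were not analysed. The 32 had a median of 0.973 clusters per 10 kb. This was below the 1.22 of protein-coding genes with a cluster and the 1.23 of the 8 members with a cluster. The exception, Pitpnm1, was identified after its value was seen. All 5 VAP and MOSPD anchors, all 5 enzymes of PI4P turnover, both phosphatidylserine synthases, both oxysterol-sensing nuclear receptors, Rab7 and 17 of 18 other lipid transfer proteins had at least 1. By summed count, which is not scaled for gene length, the highest was Esyt2, a tether of the endoplasmic reticulum to the plasma membrane, with 106 clusters and 4136 counts. Per 10 kb of span, Nr1h2 (11.5 clusters) lay above Esyt2 (9.65). Rab7, a late endosomal GTPase, had 26 clusters with 891 counts. The anchors Vapb (28 clusters, 500 counts), Vapa (14 clusters, 306 counts) and Mospd2 (7 clusters, 184 counts) followed. Sacm1l, the phosphatase that removes PI4P, had 5 clusters with 108 counts.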

How the data were processed

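RBFOX2 eiCLIP was analysed in 1 group of 3 pooled libraries. The authors, by their methods and the submitters' processing notes, trimmed adaptors with cutadapt, aligned reads end to end to GRCm38 with STAR 2.4.2a, kept unique alignments, removed PCR duplicates by position and random barcode, pooled cDNA starts and grouped them with Paraclu at default settings. The deposited value of a cluster is a whole-number count, not normalised, and no subtraction of an input was stated. That it counts cDNA starts was read from its values. The list starts at 10 counts, so absence from it sets no level. Input libraries were not analysed here, and depth per library is unknown.

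The annotation used here was GENCODE M21 (the study named release M20 of the same series). A cluster was assigned by midpoint and strand with coding sequence taking precedence over 3′ UTR, then 5′ UTR, then other exons and last intron, and with exons of retained-intron transcripts as intron. Sequence came from 141767 annotated transcripts (0 length mismatches), since no genome was used here. GCATG was searched on the transcribed strand, and it also occurs within TGCATG. Proteins were translated from the longest complete coding transcript and aligned globally with biopython 1.88 (BLOSUM62, gaps -11 and -1). Intervals are Wilson or exact Poisson at 95%, with scipy 1.17.1. Scripts were tested on simulated clusters at known positions.

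Named were all members, Osbp2 and Osbpl7, the highest cluster of each member, each cluster within 300 nt of a cassette exon or 5 kb of the Osbpl9 39-nt exon, and the 5 listed pathway genes with most counts. Sacm1l and Nr1h2 were named in addition. Members and lists were chosen with earlier results of these data known. With 1 pooled group no test was made.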

Additional observations from a re-analysis of the deposited data

Results flagged for a closer look

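Clusters on the strand opposite to a member entered no comparison, and 3 were found, against 131 on the members' own strand. In Osbpl1a they summed to 29 counts. They were a 63-nt cluster of 17 counts, inside the annotated gene AC102055.1 of that strand, and a 21-nt cluster of 12 counts outside any annotated gene of that strand. In Osbpl9 a 7-nt cluster of 11 counts lay opposite the gene, likewise with no annotated gene on its strand. Both values were noted because they stand outside the main measurement.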

How the results depend on the processing

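The total of member clusters was 131. With the median count of 17 as a minimum it was 58, and in the top 10% of counts 7, in 2 members. The listed pathway genes with a cluster then numbered 5 of 33. No share of all protein-coding genes in the top 10% is given here, so neither number can be called high or low. With 100 nt of intron the cassette exons with a cluster fell to 1 of 14, and with TGCATG as the motif the share of windows was 0. Each follows from fewer clusters, less intron or a longer motif. No cluster downstream of the Osbpl9 39-nt exon was in the top 10%. At the median count Osbp, Osbpl1a and Osbpl3 had 8 clusters each. Of 60 values for single members, 45 stayed within 1.5 times and 15 did not. The 45 include all values of Osbpl5 and Osbpl6, which had 0 clusters at every setting. The intronic share held (91.4 to 92.4%). The distance from the 39-nt exon was 181 nt wherever a value was had. It is the place of 1 cluster of 17 counts, which these settings could remove but not move. Leaving out clusters of 5 nt or less, the alternatives for the pathway genes and the 39-nt exon, and the window of 10 kb were chosen after seeing the data. Leaving out a replicate was not run because the libraries are pooled. No paired analysis was possible because the 3 libraries form 1 pooled group. Of the 131 windows, 124 had no sequence, and 10 counts per cluster limit what could be seen.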
